A study of Mus musculus with 62 samples.

Results

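Sarcolipin and 9 further genes of sarcoplasmic calcium handling (Sln, Pln, Atp2a1, Atp2a2, Ryr1, Cacna1s, Casq1, Casq2, Srl and Pvalb) were followed through a quadriceps RNA sequencing study of 62 male mice. The genes have textbook roles in calcium handling and were chosen with earlier results of these data known. All 10 were found among the 55487 genes of the count table, and all 10 passed the filter on low counts. Voluntary wheel running was crossed in full with 2 supplements, NR (nicotinamide riboside, an NAD precursor related to vitamin B) and PT (pterostilbene, a stilbenoid made by plants). The 8 groups were non-running mice with neither supplement, NR alone, PT alone or both (8 animals each), and running mice with neither supplement (7), NR alone (7), PT alone (8) or both (8). Every animal was thus labelled for running, NR and PT, and the sources used here do not give strain, age, dose or duration. The series title gives an intravenous route for NR, and the sample labels give only its presence or absence. Each group held at most 1 animal for each of 8 termination days, 4 days in cohort 1 and 4 in cohort 2.

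A skeletal muscle fibre contracts when the voltage sensor in the transverse tubule opens ryanodine receptors of the sarcoplasmic reticulum, and it relaxes when SERCA pumps return the calcium to that store. Small membrane peptides, sarcolipin, phospholamban and myoregulin among them, bind SERCA and lower its calcium transport, and sarcolipin is also known for letting the pump spend ATP without moving calcium, which produces heat. Calsequestrin holds calcium inside the store, and parvalbumin binds it in the cytosol of fast fibres. In mice, sarcolipin is abundant in atria and low in adult fast limb muscle.

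Running went with a lower level of sarcolipin, the pump inhibitor, to 0.342 of the non-running level, and with a slightly lower level of Atp2a1, the fast-fibre SERCA1 pump, to 0.928 of it. The call of Atp2a1 did not hold in either cohort alone. Over single animals the other 8 genes did not pass the test. With counts summed within each day and running state, Ryr1, Casq2 and Pvalb were called too, where 7.52% of all genes were called. NR, PT and their combinations moved none of the 10 genes past the test. Among 56 other tested genes of calcium handling, 21 fell and 2 rose with running, by small amounts, where 5.58% of all genes were called lower and 8.41% higher, and in cohort 2 alone none of the 56 was called.

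Depth and sample quality touch these results in a few places. Library totals ran from 5.64 to 30.8 M counts with a median of 16.1 M, and RNA integrity numbers from 8.6 to 10. On each day all running mice were terminated at one time of day and all non-running mice at the other, so running was shared by whole sessions (16 in all). Running mice were taken in the morning on 4 days and at noon on 4 days. One library, running with NR alone replicate 1, stood apart. It was the shallowest, at 5.64 M counts, and Ttn, the giant sarcomere protein titin, reached 88100 CPM (counts scaled to library size) in it against a median of 10100 CPM over all libraries. For some results that rest on it, values without it are also given. The tissue label fitted its markers: fast sarcomere genes summed to 104100 to 139600 CPM in every library, and of 7 heart genes Myl7 was at 0 in 60 of 62 libraries, Nppb in 58 and Nppa in 48. The other 4 were detected at low levels in nearly all libraries: Myl4 averaged 5.19 CPM in running and 6.63 CPM in non-running mice, Tnnt2 1.95 and 2.06, Myh6 1.71 and 1.80, and Tnni3 0.282 and 0.271. The 7 heart genes summed to 5.77 to 16.4 CPM with and 5.33 to 17.03 CPM without running. In bulk tissue, fewer fibres of a type and less RNA per fibre cannot be told apart.

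The order of levels was that of a fast muscle. Divided by gene length, Pvalb averaged 9988 ± 1150 CPM per kb (SD, n = 62) and Atp2a1 8976 ± 802 CPM per kb, and Pvalb was the higher of these in 53 of 62 animals, a gap within their spread. Casq1, the fast calsequestrin, followed at 1853 ± 194 CPM per kb and Srl, encoding the luminal protein sarcalumenin, at 397.5 ± 24.8 CPM per kb. Ryr1, the calcium release channel, stood at 180.9 ± 31.4 CPM per kb and Cacna1s, the voltage sensor that opens it, at 147.2 ± 14.1 CPM per kb. From Atp2a1 down to Atp2a2 each of these steps held in all 62 animals. The slow-fibre and cardiac forms lay far below their fast partners, with Atp2a2 (SERCA2) at 9.36 ± 1.59 CPM per kb and Casq2 at 6.27 ± 2.23 CPM per kb. The inhibitors were lowest, with Sln at 1.81 ± 1.66 CPM per kb and Pln (phospholamban) at 0.170 ± 0.121 CPM per kb. Atp2a2 stood above Casq2 in 56 of 62 animals, Casq2 above Sln in 60 and Sln above Pln in 61, and in each of these steps the ranges overlapped. Atp2a1 alone took 3.12% of all counts and was the third most abundant tested gene, whereas Sln took 0.000229%.

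The inhibitors are encoded by very short reading frames, shown here because Sln had the largest fold change of the 10 genes and Pln and Mrln encode its counterparts at the same pump. The coding sequences were read from the GRCm38 (mm10) genome with GENCODE M21 models, plus strand, with the start and stop codons in capitals. Sln lies on chromosome 9, with its coding bases at chr9:53853473-53853568, 31 codons before the stop. Pln lies at chr10:53343864-53344022 with 52 codons, and Mrln, encoding myoregulin, at chr10:70219496-70219636 with 46 codons.
Sln: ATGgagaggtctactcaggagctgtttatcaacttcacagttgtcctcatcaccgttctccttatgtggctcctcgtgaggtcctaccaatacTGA
Pln: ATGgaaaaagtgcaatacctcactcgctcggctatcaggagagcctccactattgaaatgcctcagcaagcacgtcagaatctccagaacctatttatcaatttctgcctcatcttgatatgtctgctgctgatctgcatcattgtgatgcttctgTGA
Mrln: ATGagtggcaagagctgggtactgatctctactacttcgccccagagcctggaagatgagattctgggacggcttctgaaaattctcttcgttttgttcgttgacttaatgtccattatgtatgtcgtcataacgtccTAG

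Sln was measured at 4 to 170 counts per library, so single values carry wide counting error. In 32 non-running mice the Sln level ran from 0.401 through a median of 2.96 to 10.3 CPM, and in 30 running mice from 0.142 through 0.925 to 4.06 CPM. The running mice were crowded into the lower end, and the ranges overlapped. The means were 3.52 ± 2.45 CPM (SD) without and 1.17 ± 0.825 CPM with running. In edgeR's quasi-likelihood test the log2 fold change was -1.55 ± 0.24 (SE) with an adjusted p of 2.54e-05, the 42nd smallest p of 14549 genes. With counts summed within the 16 sessions, which makes the session the unit, the log2 fold change was -1.64 and the adjusted p 0.00364. Within cohort 1 it was -1.38 (adjusted p 0.0347), and within cohort 2 -1.75 (adjusted p 0.035).

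The fall recurred from day to day. Against the non-running mouse of the same day and supplement, the running mouse was lower in Sln in 24 of 30 pairs. The mean of the running session was lower on all 8 days, and the non-running mean exceeded it by 1.31-fold on day 2 up to 5.65-fold on day 1. Running sessions averaged 0.741 to 1.7 CPM and non-running sessions 2.22 to 5.92 CPM, so the session means did not overlap. How many of all genes separate in this way was not counted. Within purification pool 1 the means were 1.32 ± 0.932 CPM in 18 running and 3.49 ± 2.48 CPM in 18 non-running mice, and within pool 3 0.956 ± 0.605 CPM in 12 and 3.62 ± 2.59 CPM in 13. Pool 2 held 1 library only.

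**Figure D1:**
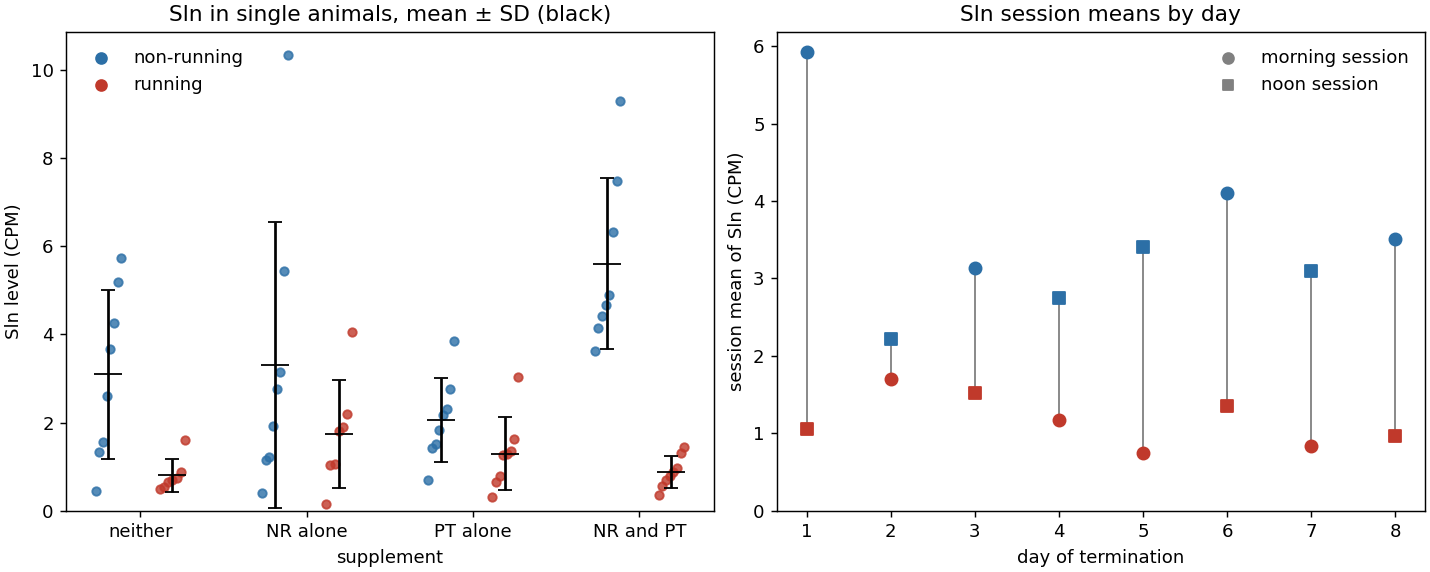
Left, Sln in each of 62 mice (y axis, CPM) by supplement (x axis), non-running in blue and running in red, with the mean ± SD of each group in black. Right, session means of Sln (y axis, CPM) on the 8 termination days (x axis), circles for morning and squares for noon. The mean of the running mice is lower in each supplement arm, and the ranges overlap except with both supplements. The running session is the lower one on every day.

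The 4 supplement arms each showed a lower running mean, by unequal amounts. With neither supplement, Sln ran from 0.453 through 3.13 to 5.72 CPM in non-running and from 0.495 through 0.701 to 1.61 CPM in running mice. With NR alone it ran from 0.401 through 2.34 to 10.3 CPM without and from 0.142 through 1.81 to 4.06 CPM with running. With PT alone the non-running values were 0.686, 2.00 and 3.84 CPM and the running values 0.322, 1.28 and 3.04 CPM (lowest, median, highest). In these 3 arms the running and non-running mice overlapped.

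With both supplements they did not. The non-running mice ran from 3.62 through 4.78 to 9.30 CPM, and the running mice from 0.361 through 0.836 to 1.45 CPM. The share of all genes whose ranges did not overlap in this arm was not counted. The log2 fold change in this arm was -2.74 ± 0.48 (SE) with an adjusted p of 0.00424 in edgeR, where 1.7% of all genes were called. The other arms gave -1.93 with neither supplement (adjusted p 0.434), -0.85 with NR (adjusted p 0.545) and -0.67 with PT (adjusted p 0.7), none of them called. The shares of genes called there were 0% with neither, 0.447% with NR and 0.00687% with PT. The 3-way interaction, which asks whether the arms depart from adding up on the log scale, was -3.17 ± 0.98 (SE) in edgeR. Its unadjusted p was 0.00222 and its adjusted p 1, so this departure did not pass the test over all genes. It is a single combination of the arms and does not test each difference between them. In each cohort alone the fall in the both-supplement arm kept its direction and lost its call (log2 fold change -2.46 with adjusted p 0.0917, and -2.99 with adjusted p 0.274).

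Pln, the inhibitor best known from heart and slow muscle, was close to the limit of detection. It had 507 counts in all 62 libraries together, from 0 to 22 per library. The level ran from 0 through 0.409 to 0.971 CPM without running and from 0.069 through 0.430 to 2.33 CPM with it, and the ranges overlapped almost entirely. The log2 fold change was 0.06 ± 0.19 (SE) with an adjusted p of 0.891. Cep85l, on the opposite strand over the same region, had 55828 counts, and the sources used here do not say whether counting used strand, so Pln reads and reads of the antisense gene cannot be told apart. The highest Pln value was in the library that stood apart.

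The SERCA pumps showed a small fall in the fast form and no called change in the slow form. Atp2a1 ran from 27410 through 31960 to 37540 CPM in non-running and from 25830 through 29680 to 35500 CPM in running mice. The ranges overlapped widely, with the running mice shifted down. The log2 fold change was -0.11 ± 0.03 (SE) with an adjusted p of 0.0104, and the running mouse was lower in 24 of 30 pairs. The running session mean was lower on 7 of 8 days. The call did not hold in either cohort alone, where the adjusted p was 0.0684 and 0.34. Atp2a1 lies on chromosome 7 (126445858 to 126463108, minus strand), and its sequence is shown because it is the most abundant member that changed. The RefSeq start lies inside the gene as counted, so the last bases of the window below, from 126463108 down to 126463074, overlap that gene. The 250 bases before its start in the RefSeq table (GRCm38.p6, chr7:126463074-126463323, minus strand) follow. The 1 match to the E-box CANNTG, the letters bound by myogenic factors such as MyoD, is in capitals.
Atp2a1 upstream: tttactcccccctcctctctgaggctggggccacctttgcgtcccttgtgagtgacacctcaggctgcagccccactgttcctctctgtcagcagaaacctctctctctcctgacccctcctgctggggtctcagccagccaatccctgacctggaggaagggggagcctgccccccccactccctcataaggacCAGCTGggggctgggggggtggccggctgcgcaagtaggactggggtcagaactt
On either strand this palindromic search matched 66.2% of 32851 upstream windows of this length, and 6 of the 7 member genes found in the table, so a match is common. The data hold no measurement of binding there.

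Atp2a2, the slow-fibre and housekeeping pump, ran from 45.9 through 54.4 to 64.8 CPM without and from 47.4 through 55.3 to 102 CPM with running. The medians nearly coincided, the ranges overlapped, and the highest values were in running mice. The running session mean was higher on 7 of 8 days. The log2 fold change was 0.11 ± 0.05 (SE) with an adjusted p of 0.153. The 3 highest values, 102, 94.4 and 74.5 CPM, came from running mice, 2 with both supplements (replicates 5 and 4) and 1 with neither (replicate 6). The same 3 libraries had the highest sums over 8 slow-fibre sarcomere genes, at 187, 149 and 123 CPM, against a median of 30.5 CPM in running and 27.6 CPM in non-running mice. Without them the log2 fold change of Atp2a2 was 0.02 (adjusted p 0.736), with this setting chosen after seeing the data. Since these were the 3 highest Atp2a2 values and all from running mice, leaving them out had to lower it. The part of slow-fibre content was not tested. Per kb of gene length, Atp2a1 exceeded Atp2a2 by 918 ± 190 fold (SD) in running and 1040 ± 118 fold in non-running mice.

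**Figure D2:**
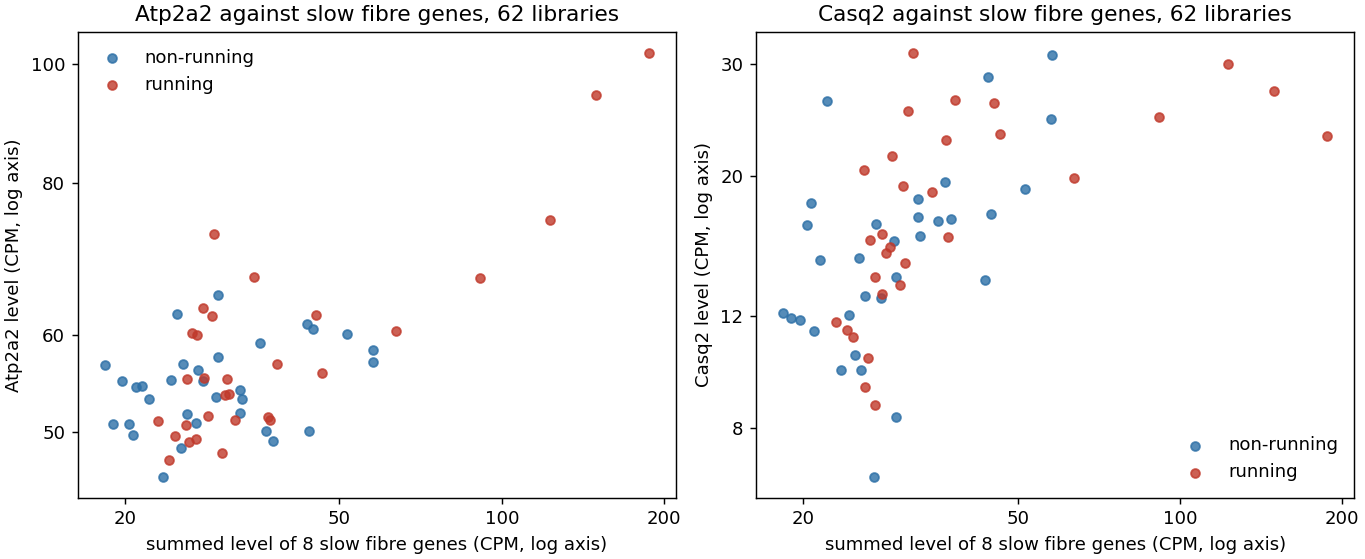
Atp2a2 (left) and Casq2 (right) in CPM (y axis, log scale) against the summed level of 8 slow-fibre genes in CPM (x axis, log scale), 62 libraries, non-running in blue and running in red. The 3 libraries with the highest slow-fibre sum, 187, 149 and 123 CPM, have the 3 highest Atp2a2 levels. Casq2 spreads over most of its range, 6.70 to 31.2 CPM, at low slow-fibre sums.

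The release channel and its voltage sensor were close to their non-running levels. Ryr1 ran from 3034 through 3950 to 5319 CPM without and from 3027 through 3722 to 7975 CPM with running, a log2 fold change of -0.07 ± 0.05 (SE) with an adjusted p of 0.425. The 7975 CPM were in the library that stood apart, and the ranges overlapped. Cacna1s ran from 831.8 through 998.2 to 1188 CPM without and from 782.5 through 941.6 to 1264 CPM with running, with -0.07 ± 0.03 (SE) and an adjusted p of 0.127. Its highest value was in the same library. Without that library, which was left out after seeing the data, both fell: Ryr1 by 0.13 on the log2 scale (adjusted p 0.0239) and Cacna1s by 0.10 (adjusted p 0.025). With counts summed per session Ryr1 was called too (log2 fold change -0.12, adjusted p 0.0336).

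None of the store and cytosolic calcium binders passed the test over single animals. Casq1 ran from 2870 through 3699 to 4270 CPM without and from 2403 through 3552 to 4254 CPM with running (log2 fold change -0.06 ± 0.04 SE, adjusted p 0.274). Pvalb ran from 8720 through 10900 to 12660 CPM without and from 5114 through 10120 to 12020 CPM with it (-0.10 ± 0.04 SE, adjusted p 0.0936). Both sets overlapped, and their lowest values, 2403 and 5114 CPM, were again in the library that stood apart. Srl, at 1891 to 2369 CPM without and 1820 to 2314 CPM with running, was the steadiest of the 10 genes, with a coefficient of variation of 6.24% over all animals and a log2 fold change of -0.03 ± 0.03 (SE, adjusted p 0.446). Casq2, the slow and cardiac calsequestrin, ran from 6.70 through 15.3 to 31.0 CPM without and from 8.69 through 17.5 to 31.2 CPM with running, 0.24 ± 0.12 (SE) with an adjusted p of 0.199. The running session mean of Casq2 was higher on 7 of 8 days. In the fit of session sums Casq2 was called higher (0.22, adjusted p 0.0214) and Pvalb lower (-0.10, adjusted p 0.0422). Per kb, Casq1 exceeded Casq2 by 313 ± 148 fold (SD) with and 367 ± 133 fold without running.

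**Figure D3:**
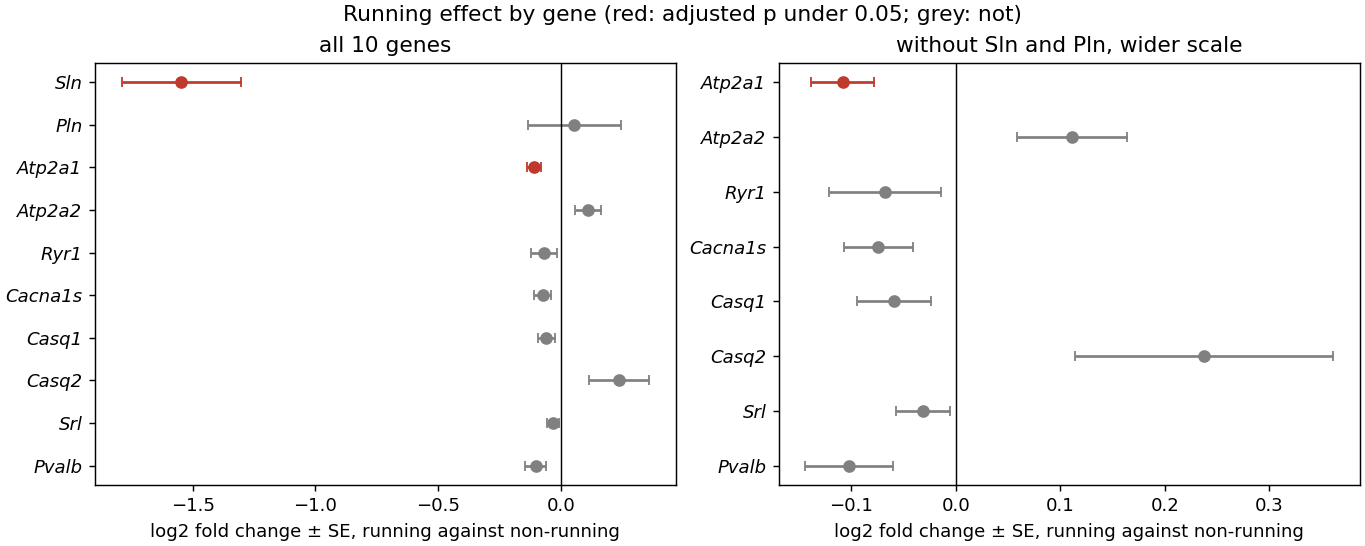
Log2 fold change ± SE for running against non-running mice (x axis) by gene (y axis), from 30 against 32 animals, with called genes in red. The right panel repeats 8 genes on a wider scale, where Atp2a1 lies at -0.11 and the others were not called.

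In all, 2 of 10 genes were called for running in edgeR, both lower, where 14% of all 14549 genes were called and 5.58% called lower. At an unadjusted p under 0.05 there were 5 of 10, against 28.5% of all genes. The median log2 fold change of the 10 genes was -0.06 and that of all genes 0.01. By the session sums 5 of 10 were called, where the share of all genes called was 7.52%.

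The supplements and the time of day moved none of the 10 genes past edgeR's test, and DESeq2 gave 0 too. For NR, 0.0206% of all genes were called, and 1 of 10 genes had an unadjusted p under 0.05, against 5.69% of all genes. That gene was Sln, whose log2 fold change with NR was 0.51 (95% interval 0.01 to 1.00, unadjusted p 0.0459, adjusted p 0.867). For PT no gene of all 14549 was called at an adjusted p under 0.05 (580, or 3.99%, had an unadjusted p under 0.05). Casq1, the 1 member among these, was at 0.08 ± 0.04 (SE, unadjusted p 0.0226, adjusted p 1). Noon against morning gave no member with an unadjusted p under 0.05, where 5.28% of all genes had one, and the smallest adjusted p was 0.954. Each interaction called 0 of 10 genes in edgeR and in DESeq2, and no gene of all 14549 was called by edgeR. The unadjusted p was under 0.05 in 0 members for running by NR (3.61% of all genes), 1 for running by PT (3.51%), 0 for NR by PT (2.25%) and 1, Sln, for all 3 factors (2.77%). The one with PT was Pln (log2 difference -1.14 ± 0.38 SE, unadjusted p 0.00404, adjusted p 1), at counts of 0 to 22.

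Against non-running mice with neither supplement, the mice given both had higher group means of Sln (5.61 ± 1.95 against 3.10 ± 1.92 CPM, SD, n = 8 each). The log2 fold change was 0.88 ± 0.41 (SE) with an unadjusted p of 0.0348 and an adjusted p of 0.955 in edgeR, and the ranges, 3.62 to 9.30 and 0.453 to 5.72 CPM, overlapped. In running mice the same step was 0.07 (adjusted p 1), with means of 0.878 ± 0.366 and 0.803 ± 0.380 CPM. The 6 comparisons of NR, PT or both with neither supplement, within running or non-running mice, called 0 of 10 genes in edgeR, and of all genes 0.00687% for both supplements in non-running mice and 0 in the other 5. At an unadjusted p under 0.05 stood Sln and Pln for both supplements and Pln for PT in non-running mice, and Atp2a2 for both supplements in running mice. The share of all genes under that unadjusted threshold is not given for these 6 comparisons, so no result is read from them. Within each running state these comparisons share the same mice with neither supplement.

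The wider calcium machinery was examined in a list of 58 further genes, of which 57 were matched and 56 tested. This list too was chosen with earlier results of these data known. With running, 21 fell and 2 rose in edgeR, 23 of 56 against 14% of all genes called (8.41% higher, 5.58% lower), with a median log2 fold change of -0.07 against 0.01 for all genes. The list summed to 15480 ± 860.3 CPM (SD, n = 30) in running and 16440 ± 541.2 CPM (n = 32) in non-running mice. Within cohort 1 alone 5 were called, and within cohort 2 alone 0, where 4.31% and 0.42% of all genes were called. With counts summed per session 18 were called, 16 lower and 2 higher, and the calls lost included those of Stim2, Atp2b1 and Ppp3r1. The sign of all 23 genes was the same in each of 18 other settings.

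Of 22 genes of the triad, the junction where voltage sensor and release channel face each other, 12 fell and 1 rose. Cacng1, the gamma subunit of the voltage sensor, went from 259 ± 24 to 220 ± 29.2 CPM (SD), a log2 fold change of -0.24 with an adjusted p of 6.51e-05. Asph, whose locus also encodes the store protein junctin, fell by 0.15 on the log2 scale (adjusted p 0.000218). Jph1, junctophilin 1, which holds the tubule and store membranes together, fell by 0.11 (adjusted p 0.00183), and Tmem38b, a store counter-ion channel, fell by 0.13 (adjusted p 0.00147). Sypl2, encoding the triad protein mitsugumin 29, fell by 0.11 (adjusted p 0.00232). The gene that rose was S100a1, a calcium sensor that binds the release channel, from 66.3 ± 4.33 to 74.7 ± 9.39 CPM (log2 fold change 0.17, adjusted p 0.000779).

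Among 3 tested pump genes outside the 10, Mrln fell, from 47.5 ± 6.04 to 40.2 ± 7.17 CPM (log2 fold change -0.23, adjusted p 0.00323). Its level lay well above that of Sln in CPM. Of 6 plasma membrane extrusion genes 2 fell, Slc8a1 (the sodium-calcium exchanger NCX1) by 0.15 and Atp2b1 (a plasma membrane calcium pump) by 0.07 on the log2 scale, with adjusted p of 0.00932 and 0.0363. With session sums Atp2b1 was not called (adjusted p 0.125). Of 3 genes of store-operated entry Stim2, a sensor of store calcium, fell by 0.10 (adjusted p 0.0331), a call lost with session sums (adjusted p 0.103). Of 7 mitochondrial calcium genes 1 rose, Slc8b1, the mitochondrial sodium-calcium exchanger (0.19, adjusted p 0.00703). Of 15 calcineurin and calmodulin kinase genes 5 fell (Ppp3ca, Ppp3cb, Ppp3r1, Nfatc3 and Camk2a), and Ppp3ca, a calcineurin catalytic subunit, did so by 0.11 (adjusted p 0.0042). The call of Ppp3r1, the regulatory subunit, was lost with session sums (adjusted p 0.0598). In the both-supplement arm alone 4 of 56 fell with running (Jph1, Asph, Mrln and Slc8a1) and 1 rose (S100a1), where 1.7% of all genes were called.

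**Figure D4:**
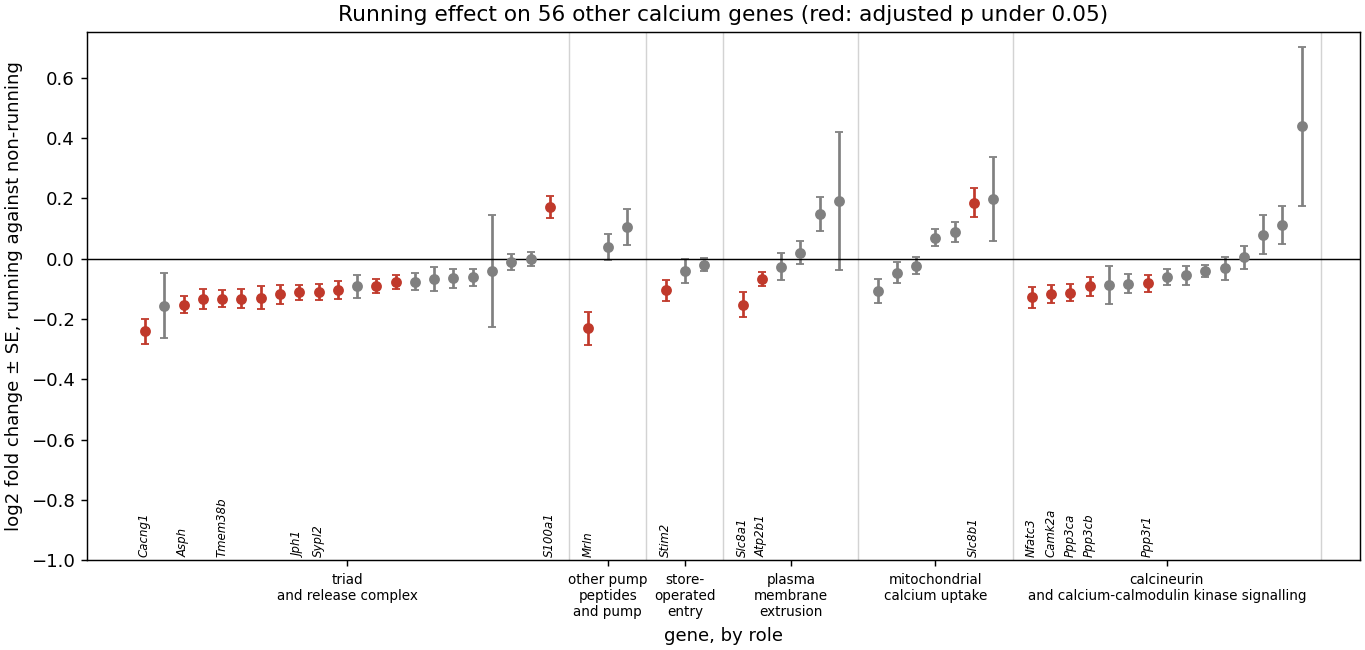
Log2 fold change ± SE for running against non-running mice (y axis) for 56 calcium genes outside the 10, grouped by role (x axis), called genes in red, with names for the genes given in the text. In the triad group 12 of 22 genes are called below 0 and S100a1 above it, and Mrln is the called pump peptide.

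Some markers of fibre state and of other cells were also called for running, where 8.41% of all genes were called higher and 5.58% lower, and their part in these results was not tested. Of 8 slow-fibre genes 2 rose (Myl2 and Tpm3), and the sum over all 8 ran from 23.1 to 187 CPM in running and 18.4 to 57.8 CPM in non-running mice. Of 10 fast-fibre genes Myh1, the myosin of type IIX fibres, rose from 2880 ± 924 to 4670 ± 1910 CPM and Actn3 fell. Of 12 genes of immature or denervated fibres 6 fell (Chrng, Chrnd, Myog, Myod1, Mymk and Cdkn1a). The sum over all 12 ran from 54.3 to 88.6 CPM with and 62.5 to 109 CPM without running. All 6 endothelial genes rose, with sums of 228.2 to 440.2 CPM against 215.8 to 306.3 CPM. Of fibroblast genes 2 of 6 rose, of immune genes 2 of 6, and of adipocyte genes 1 of 5. Of 8 smooth muscle genes Acta2 fell, and of 3 tested heart genes Myl4 fell. Without the 3 libraries highest in slow-fibre genes, a setting chosen after seeing the data, Sln was at -1.58 (adjusted p 0.000151). The part of fibre make-up in the Sln change was not tested.

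Co-variation between animals was taken once group, day and time were removed. These are descriptions over 62 libraries that share depth and fibre make-up within an animal. Ryr1 and Cacna1s went together (r = 0.80), as did Casq1 and Pvalb (r = 0.87) and Atp2a1 and Cacna1s (r = 0.69). Atp2a2 was negative with Pvalb (r = -0.61) and Casq1 (-0.52), and near 0 or weakly positive with Atp2a1 (-0.12), Ryr1 (0.17) and Cacna1s (0.14). Casq2 was negative with Casq1 (-0.49) and Pvalb (-0.41), and weak with Cacna1s (0.12) and Srl (0.03). Leaving out the library that stood apart moved the r of Ryr1 with Pvalb from -0.29 to 0.30 and with Casq1 from 0.04 to 0.47. It moved that of Cacna1s with Casq1 from 0.05 to 0.27 and with Pvalb from -0.24 to 0.04. Sln had an r from -0.13 to 0.20 with the other 9 genes, and its low counts, 4 to 170 per library, can pull r towards 0. With the genes of immature or denervated fibres its r ran from -0.017 (Runx1) to 0.56 (Cdkn1a). With the slow-fibre genes it ran from -0.085 (Myl3) to 0.36 (Tnnc1).

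The closest genes were sought among tested genes that averaged 1 CPM or more. Genes without a symbol and predicted genes (named Gm with a number, or ending in Rik) were skipped. For Casq2 they were Myh2, the myosin of type IIA fibres (r = 0.89), Idh2 (0.89) and Coq8a (0.89), for Pvalb the fast light chain Mylpf (0.89), and for Atp2a1 Supt5 (0.81) and Pygm, muscle glycogen phosphorylase (0.81). For Sln they were Aldh3a1 (0.63), an aldehyde dehydrogenase, Cdkn1a (0.56), the cell cycle inhibitor p21, Trim62 (0.52), Rrad (0.50) and Prmt7 (0.49). Of these, Aldh3a1, Cdkn1a and Rrad were also called lower with running (log2 fold changes -1.08, -0.66 and -0.41, adjusted p 0.000608, 0.000163 and 0.0315), and Trim62 (0.07, adjusted p 0.731) and Prmt7 (-0.04, adjusted p 0.303) were not. For Atp2a2 they were Flt4 (0.59), Tpm3 (0.55) and Ablim1 (0.55), weaker than for the abundant genes. Some of these places changed without the library that stood apart. The closest gene was then Casq1 for Pvalb (0.87), with Mylpf no longer among the 3 closest. For Atp2a2 it was the slow-fibre gene Myh7 (0.59), with Flt4 and Ablim1 no longer among them. For Sln, Aldh3a1 (0.63) and Cdkn1a (0.56) stayed the closest.

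**Figure D5:**
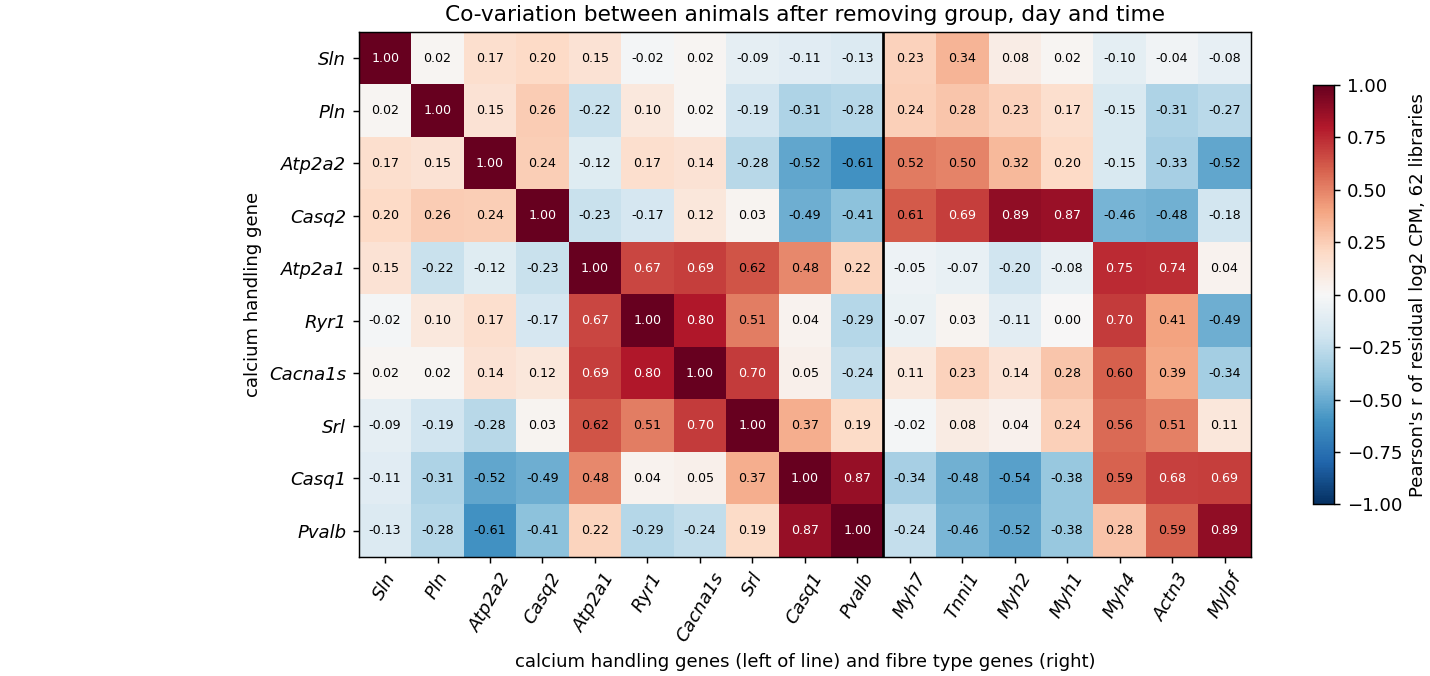
Pearson's r between animals (colour and number) of the 10 genes (rows) with each other and with 7 fibre-type genes (columns), on log2 CPM after group, day and time were removed, 62 libraries. Ryr1, Cacna1s, Atp2a1 and Srl are positive with each other, as are Casq1 and Pvalb, Casq2 is highest with Myh2 and Myh1, and Sln is near 0 with most.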

How the data were processed

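Poly-A RNA of 62 quadriceps muscles was sequenced with a stranded kit, per the labels' protocols. The authors deposited whole-number read counts per gene and each gene's length, aligned with STAR 2.7.3a and counted with featureCounts 2.0.0 against mm10, which the submitters' processing notes record. No source used here states the annotation release or whether counting used strand. Symbols came from GENCODE M21 (55394 of 55487 identifiers, 99.8%), and overlapping genes other than those at Pln held at most 0.793% of a member's counts.

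Genes were kept by filterByExpr at a minimum count of 10 and a minimum total of 15, scaled by TMM, and fitted in edgeR 4.0.16 (limma 3.58.1, R 4.3.3) with 8 groups, day and time, 46 residual degrees of freedom. Tests were two-sided quasi-likelihood F tests, Benjamini-Hochberg adjusted over 14549 genes, and called under 0.05. The SE is the log2 fold change over the root of F. Levels are CPM with TMM-scaled totals, and lengths for CPM per kb are as deposited. Likeness is Pearson's r of residual log2 CPM (prior count 1). The pipeline was tested on simulated counts that held no day or session effect. Alternatives were DESeq2 1.42.0, other scaling, filter and covariates, session sums, single cohorts, each day left out and a replicate block. Each library is 1 animal as labelled. The p-values weigh a change against the spread between animals left after group, day and time. Only the session sums take the session, which running shared, as the unit. Members, lists and the rule for named genes (members, pathway genes with the smallest adjusted p, and the closest genes by r) were chosen with earlier results of these data known. Called genes named beside a count of 5 or fewer, and those of the fibre and cell type lists beyond 3 a list, were named after their values were seen. Some results that need genes withheld for evaluation are not reported here.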

Additional observations from a re-analysis of the deposited data

Results flagged for a closer look

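Of 80 sets of values (10 genes in 8 groups), 4 held 1 animal far from the others of its group by Dixon's test, and chance flags about 1 in 20 such sets, which is 4 of 80. In running mice with NR alone, replicate 1 was far above the other 6 animals in 3 genes. It had 7975 CPM of Ryr1 against 3889 CPM in the next animal, 1264 CPM of Cacna1s against 959.3 CPM, and 2.33 CPM of Pln against 0.773 CPM. This was the shallowest library, with the highest Ttn level. In running mice with neither supplement, replicate 7 had 1.61 CPM of Sln against 0.882 CPM in the next animal, and it remained below the median of non-running mice without supplements, 3.13 CPM.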

How the results depend on the processing

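Sln kept its direction and its call for running under all 18 other settings, with log2 fold changes from -1.38 to -1.75 and adjusted p from 4.34e-08 to 0.035. The number of the 10 genes called for running was 2, and it became 5 with session sums, 1 in cohort 1 alone, 1 in cohort 2 alone (Sln each time) and 4 without replicate 1 of running with NR alone. Among all genes 2035 were called for running, against 1333 with no filter, 1245 with session sums, 623 in cohort 1 and 63 in cohort 2. Leaving out each day in turn gave 1036 (without day 1) to 2358 genes (without day 2), with 1189 without day 4 and 2391 without replicate 1 of running with NR alone. The 23 called genes of the calcium list became 5 in cohort 1 and 0 in cohort 2. Without replicate 1 of running with NR alone, 25 of the list were called lower and 3 higher, where 16.3% of all genes were called. Single cohorts hold fewer samples, and the cause of the other differences was not tested. With RLE scaling the balance of called genes was 1104 higher and 1039 lower, against 1223 and 812. By the labels, samples with equal replicate numbers fell on different days. The median r was 0.0077 over 211 pairs of libraries sharing a number and 0.00904 over 210 pairs sharing a day. This measure therefore cannot show whether libraries are paired. With the replicate block in place of the day 1976 genes and 2 of the 10 were called, with Sln at -1.54 (adjusted p 2.63e-05). For NR, PT, time of day and the interactions none of the alternatives run called any of the 10 genes. Session sums were fitted for running only, and the fit without day and time gives no value for time of day. Sln rests on 4 to 170 and Pln on 0 to 22 counts per library, so small changes in either were not detectable at this depth.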
